A study of Mus musculus with 19 samples.

Results

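The genes described here carry signals from the circadian clock to the rest of the cell or adjust the clock's pace: the activators Dbp, Tef and Hlf, the repressor Nfil3, the repressors Bhlhe40 and Bhlhe41, the nuclear receptor Rora, and the kinases Csnk1d and Csnk1e. They were chosen by name from textbook knowledge of the clock. All 9 had a probe set that carried only their symbol, among 18193 genes with such a probe set, and each was read from the one with the highest mean over 19 arrays. Of the 9 genes, 8 were bright enough to be among the 13460 genes tested. Bhlhe41 was not, since its mean log2 intensity of 4.72 lay below the filter at 5.54, and its values are given without a place in the counts.

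RNA came from sciatic nerves of mice of the inbred strain DBA/2J, with 1 array per mouse. Control mice received vehicle (CV, n = 4) or rosiglitazone (CR, n = 5). Mice made diabetic with STZ, streptozotocin, which destroys the insulin-producing cells of the pancreas, received vehicle (DV, n = 5) or rosiglitazone (DR, n = 5). Rosiglitazone activates the nuclear receptor PPAR gamma and is used against insulin resistance. The labels of the vehicle groups name no treatment besides STZ, and the age and sex of the mice, the length of diabetes and the hour at which nerves were taken are not given in the sources used here. Arrays are named by group and the number in their titles.

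In the clock, the pair of CLOCK or NPAS2 with BMAL1, the product of Arntl, switches on genes through the E-box, and the PER and CRY proteins made from those genes switch the pair off again. Dbp, Tef and Hlf belong to the PAR family of basic leucine zipper factors, which bind the D-box and so pass the rhythm on, while NFIL3, also called E4BP4, binds the same D-box and represses. Dbp is among the genes with the widest daily swing in peripheral tissues, and Arntl and Npas2 peak at about the opposite phase, and the level of such genes in a tissue depends on the hour of collection. BHLHE40 and BHLHE41, also called DEC1 and DEC2, compete for the E-box, RORA switches on Arntl and other genes through the ROR element (RORE), and casein kinases 1 delta and 1 epsilon phosphorylate PER and set the period.

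Promoter sequences of the D-box factors are shown because Dbp and Tef varied together across arrays, as described below, while Hlf and Nfil3 did so less or in the opposite direction. Each line is the stretch of 250 bases that ends just before a transcription start, 5′ to 3′ on the gene's strand, from RefSeq on build GRCm38.p6, with any matched motif in capitals. Tef has 2 annotated starts with a window. The windows of Nfil3 and of the downstream Tef start lie wholly inside the annotated gene spans, and that of Dbp partly. For Dbp and Nfil3 the span begins farther upstream, at a point without a window.
Dbp, chr7:45704997-45705246, plus strand: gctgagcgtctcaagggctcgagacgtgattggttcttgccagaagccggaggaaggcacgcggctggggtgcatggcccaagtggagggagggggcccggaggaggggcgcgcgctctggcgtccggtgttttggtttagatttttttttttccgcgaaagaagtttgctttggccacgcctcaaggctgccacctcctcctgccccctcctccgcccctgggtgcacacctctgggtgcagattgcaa
Tef upstream start, chr15:81802423-81802672, plus strand: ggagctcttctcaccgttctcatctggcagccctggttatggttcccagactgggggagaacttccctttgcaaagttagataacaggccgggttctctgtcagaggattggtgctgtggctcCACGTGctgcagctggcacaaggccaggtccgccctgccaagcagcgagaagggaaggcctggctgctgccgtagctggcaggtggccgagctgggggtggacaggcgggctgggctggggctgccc
Tef downstream start, chr15:81811164-81811413, plus strand: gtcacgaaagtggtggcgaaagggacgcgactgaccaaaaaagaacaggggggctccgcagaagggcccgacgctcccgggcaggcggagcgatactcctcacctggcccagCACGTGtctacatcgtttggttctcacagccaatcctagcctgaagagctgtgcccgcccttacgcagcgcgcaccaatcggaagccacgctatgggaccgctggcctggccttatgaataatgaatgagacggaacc
Hlf, chr11:90390918-90391167, minus strand: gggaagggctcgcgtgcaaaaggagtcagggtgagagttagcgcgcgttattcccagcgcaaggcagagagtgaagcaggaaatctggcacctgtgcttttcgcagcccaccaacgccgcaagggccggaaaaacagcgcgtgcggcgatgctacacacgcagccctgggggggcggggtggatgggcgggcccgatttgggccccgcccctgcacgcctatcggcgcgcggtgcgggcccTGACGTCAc
Nfil3, chr13:52981040-52981289, minus strand: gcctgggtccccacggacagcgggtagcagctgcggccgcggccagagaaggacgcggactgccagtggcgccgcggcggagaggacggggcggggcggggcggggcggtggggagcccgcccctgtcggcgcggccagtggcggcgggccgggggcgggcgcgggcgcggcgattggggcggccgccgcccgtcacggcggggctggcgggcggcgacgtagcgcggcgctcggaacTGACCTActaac

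The motifs searched, on both strands and in windows of 300 bases that also held the 50 bases from the start, were the E-box CACGTG, D-box forms TTATGTAA and TTACGTAA, the RORE TAGGTCA and the cAMP response element TGACGTCA. CACGTG stood in both Tef windows, at positions -127 and -138 counted from the start, and in the Bhlhe41 window at -153. It is present in 7.15% of the 32851 promoter windows in the RefSeq table. Hlf held TGACGTCA at -9, a motif in 1.79% of windows, and Nfil3 held TGACCTA, the reverse complement of the RORE, at -12, a motif in 2.61% of windows. No D-box form was found in the 11 windows of the 7 genes with a window, against 0.938% of all windows for TTATGTAA and 0.119% for TTACGTAA. The windows of Dbp, Rora and Csnk1e held none of these letters. A match or its lack describes these letters in this stretch alone. Bhlhe40 and Csnk1d had no matched window.

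Several features of the samples move with the groups and stand beside the results. RNA integrity was read from Gapdh control probe sets at either end of the transcript, whose log2 difference widens with degradation. It was 3.71 in DV706 and 4.38 in DV707, 1.75 in DR716 and 1.00 to 1.37 in the other arrays. Transcripts that mark the cell bodies of sensory neurons, found in ganglia, were low in DV706, DV707, DV709, CR715 and DR716, called neuron-poor here, where the mean level of 10 marker genes relative to their mean over all arrays was -3.74 to -3.11 against -0.05 to 2.20 elsewhere. With these 5 arrays left out, only DV708 and DV710 remain in DV, and values for diabetes under vehicle given without the 5 rest on them. Endothelial markers ran from 0.23 to 1.20 in DV706, DV707, DV709 and DV710, were at -0.40 in DV708, and ran from -0.54 to -0.18 in the CV arrays. Of 5 Schwann cell markers tested, the myelin genes Mbp and Pmp22 were bright in all 19 arrays, at log2 intensities of 13.83 to 14.44 and 13.82 to 14.34. The other 3 ranged more widely, with Mag at 6.76 to 9.78, Sox10 at 10.26 to 12.91 and S100b at 11.25 to 13.60. Mag was lowest in CR715, DR716 and DV707, and S100b in DV707, DR716, CR715 and DV706, all of them neuron-poor arrays. Sox10, in contrast, was highest in the neuron-poor arrays DV706 and DV707, at 12.91 and 12.31, and lowest in CR715. In DV709, also neuron-poor, Mag was at 9.41 and S100b at 13.39. Of 6 markers of fibroblasts and perineurium, 4 lay lower for diabetes under vehicle and 2, Pdgfra and Slc2a1, lay higher. Their mean relative level was -0.26 to 0.12 in the DV arrays against 0.12 to 0.19 in CV. At an unadjusted limma p under 0.05, 3 of 6 lay lower under vehicle (Lum at -0.82, Col3a1 at -0.40 and Col1a1 at -0.36) and 0 of 6 differed under rosiglitazone. Of all genes tested, 18.1% and 1.29% reached that level in either direction. Adipocyte markers ran from -4.97 to 2.59 over the 19 arrays and skeletal muscle markers from -2.74 to 4.21, with wide overlap between groups. In whole nerve, a lower value cannot be told apart between fewer cells that make a transcript and less of it per cell. The part of these features and of the hour of collection in the differences below was not tested.

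Dbp was among the more variable genes in these nerves and lay higher in most diabetic mice, although no difference of any gene in the group passed the adjusted threshold. Its log2 intensity was 10.60, 11.52, 12.48 and 10.08 in CV702 to CV705, a spread of more than 2 units within the vehicle controls. In DV706 to DV710 it was 12.57, 12.60, 12.55, 12.51 and 11.97. The diabetic vehicle arrays were close together, 4 of them above every control array, and the groups overlapped only in that CV704 exceeded DV710. In CR711 to CR715 it was 12.61, 12.14, 11.59, 11.14 and 10.21, and in DR716 to DR720 it was 13.03, 12.25, 11.79, 11.81 and 12.51. CR711 and CR712 lay inside the DR range, and CR713, CR714 and CR715 lay below every DR array. Group means were 11.17 ± 1.06 (SD, n = 4) in CV, 12.44 ± 0.26 (SD, n = 5) in DV, 11.54 ± 0.93 (SD, n = 5) in CR and 12.28 ± 0.52 (SD, n = 5) in DR. Over all arrays the SD was 0.85, larger than that of 91.2% of the genes tested.

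**Figure D1:**
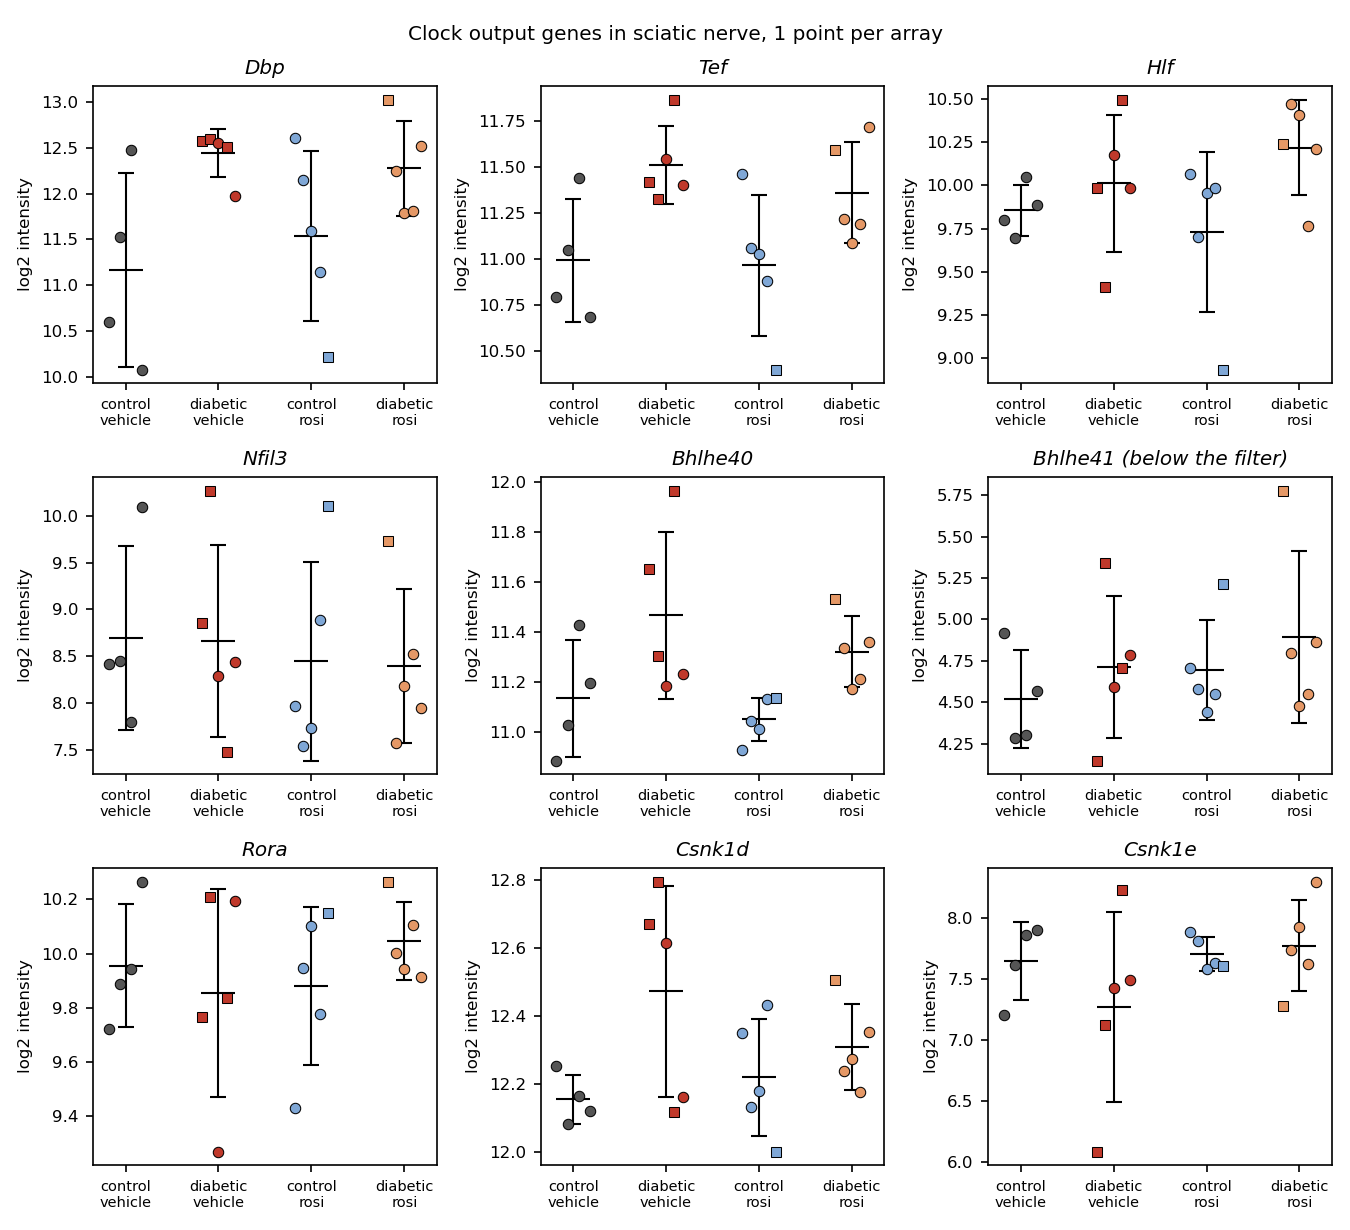
Log2 intensity of the 9 clock output genes (y axis) in the 4 groups (x axis), 1 point per array, with the group mean and SD as black bars. Squares are the 5 neuron-poor arrays (DV706, DV707, DV709, CR715 and DR716). Dbp spans 10.08 to 13.03 with the DV arrays near the top, Nfil3 spans 7.48 to 10.27 in no order of groups, and Csnk1d stays between 12.00 and 12.80.

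Under vehicle, Dbp lay 2.41-fold higher in diabetic nerves (95% confidence interval 1.22 to 4.78), a log2 difference of 1.27 (SE 0.47) with a limma adjusted p of 0.238 over all genes tested. Under rosiglitazone, in other mice, it lay 1.67-fold higher (0.876 to 3.18), with a limma adjusted p of 1. Without CV704 the vehicle difference was 1.71 (SE 0.45), and without CV705 it was 0.91 (SE 0.47). It was 1.17 without DV706 and DV707, the arrays with the largest Gapdh difference, and 1.09 without the 5 neuron-poor arrays. The difference under rosiglitazone was 0.74 (SE 0.44) with all arrays, 0.41 without CR715 and 0.22 without the 5 arrays. The other Dbp probe set gave 0.87 under vehicle and 0.72 under rosiglitazone.

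Tef, of the 8 genes tested the one that followed Dbp most closely across arrays, covered a narrower range. It was at 10.79, 11.04, 11.44 and 10.68 in CV702 to CV705 and at 11.42, 11.33, 11.54, 11.87 and 11.40 in DV706 to DV710. As for Dbp, CV704 was the only control array inside the diabetic range. In CR711 to CR715 it was 11.46, 11.06, 11.03, 10.88 and 10.40, and in DR716 to DR720 it was 11.59, 11.22, 11.09, 11.19 and 11.71. CR711 was the only CR array inside the DR range, and CR715 was the lowest of all 19. Tef lay 1.43-fold higher in diabetic nerves under vehicle (1.07 to 1.93), a log2 difference of 0.52 (SE 0.20) with a limma adjusted p of 0.2405. Under rosiglitazone it lay 1.31-fold higher (0.995 to 1.74), with a limma adjusted p of 1. Its 3 probe sets had the same sign in both comparisons, with 0.30 to 0.52 under vehicle and 0.30 to 0.57 under rosiglitazone. Under vehicle the difference was 0.42 without CV705 and 0.48 without the 5 neuron-poor arrays, and under rosiglitazone it was 0.25 without CR715 and 0.20 without the 5 arrays.

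Hlf, the third activator of the family, overlapped fully between the vehicle groups. It was at 9.80, 9.70, 10.05 and 9.88 in CV702 to CV705 and at 9.99, 9.41, 10.18, 10.50 and 9.99 in DV706 to DV710, and the control arrays lay inside the diabetic range. Its values in CR711 to CR715 were 10.06, 9.70, 9.96, 9.98 and 8.93, and in DR716 to DR720 they were 10.24, 10.47, 10.41, 9.77 and 10.21. All DR arrays except DR719 exceeded every CR array, and CR715 was the lowest of the 19. The log2 difference was 0.16 (SE 0.23) under vehicle and 0.49 (SE 0.22) under rosiglitazone, with limma adjusted p-values of 0.711 and 1. The vehicle value ran from 0.034 without DV709 to 0.36 without DV706 and DV707. The rosiglitazone value was 0.29 (SE 0.18) without CR715. Whether diabetes differed between vehicle and rosiglitazone for Hlf was tested by the interaction, which was 0.33 (SE 0.32, limma adjusted p = 0.771).

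Nfil3, the repressor at the same DNA element, was the most variable of the genes, with an SD of 0.90 over 19 arrays, above that of 92.1% of the genes tested. It was at 8.41, 8.45, 7.80 and 10.10 in CV702 to CV705, at 8.85, 10.27, 8.29, 7.48 and 8.43 in DV706 to DV710, at 7.96, 7.54, 7.73, 8.89 and 10.11 in CR711 to CR715, and at 9.73, 7.57, 8.18, 8.52 and 7.95 in DR716 to DR720. Each group had 1 array far above its others, namely CV705, DV707, CR715 and DR716, and the groups overlapped widely. Of these, DV707, CR715 and DR716 were among the 5 neuron-poor arrays, while CV705 was not. Log2 differences between groups were small beside that spread, at -0.03 (SE 0.62) for diabetes under vehicle and -0.06 (SE 0.58) under rosiglitazone. The interval of the vehicle difference, 0.397-fold to 2.43-fold, leaves room for changes of more than 2-fold either way, so the data do not show that Nfil3 was alike between groups.

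Bhlhe40, which competes for the E-box and also answers to hypoxia and growth signals in many cells, was the only gene of the 8 tested whose groups did not overlap in a comparison. It was at 10.93, 11.05, 11.01, 11.13 and 11.14 in CR711 to CR715 and at 11.53, 11.34, 11.17, 11.21 and 11.36 in DR716 to DR720. The gap between CR715 and DR718 was narrow, and 0.401% of the genes tested had no overlap in that comparison. The groups of all 8 genes overlapped for diabetes under vehicle, rosiglitazone in control mice and rosiglitazone in diabetic mice, where 5.06%, 3.45% and 0.632% of the genes tested had no overlap. Under vehicle it was at 10.89, 11.03, 11.43 and 11.20 in CV702 to CV705 and at 11.65, 11.30, 11.18, 11.97 and 11.24 in DV706 to DV710, with CV704 above 3 of the DV arrays. The log2 differences were 0.33 (SE 0.15, limma adjusted p = 0.262) under vehicle and 0.27 (SE 0.14, limma adjusted p = 1) under rosiglitazone. The vehicle value depended on DV709, without which it was 0.21, and was 0.07 without the 5 neuron-poor arrays, which leaves only DV708 and DV710 in DV. Under rosiglitazone it was 0.24 without them. Bhlhe41, its paralog, was dim in every group, with values of 4.15 to 5.78 and log2 differences for diabetes of 0.20 (SE 0.26) under vehicle and 0.20 (SE 0.25) under rosiglitazone in a fit without the filter.

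Rora, the nuclear receptor that drives Arntl, was between 9.27 in DV708 and 10.27 in DR716, and no group stood apart. It was at 9.72, 9.89, 9.94 and 10.27 in CV702 to CV705 and at 9.77, 10.21, 9.27, 9.84 and 10.19 in DV706 to DV710. The CR arrays ran from 9.43 to 10.15 and the DR arrays from 9.91 to 10.27. The log2 difference for diabetes was -0.10 (SE 0.19) under vehicle and 0.17 (SE 0.18) under rosiglitazone. Rora had 9 probe sets, of which 8 were lower in diabetic nerves under vehicle, with log2 differences of -0.84 to -0.04, and 4 had the sign of the chosen one under rosiglitazone. Of the 9, 5 lay above the filter, and these ran from -0.83 to -0.10 under vehicle. Averaging all 9, dim ones included, gave -0.34 (SE 0.14) under vehicle, so the value depends on which probe sets are read.

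Csnk1d, the casein kinase 1 delta gene, was the least variable of the genes, with an SD of 0.22, and was at 12.25, 12.08, 12.17 and 12.12 in CV702 to CV705 against 12.67, 12.80, 12.62, 12.12 and 12.16 in DV706 to DV710. DV706 to DV708 lay above every control array, and DV709 and DV710 lay within the control range. The log2 difference was 0.32 (SE 0.14, limma adjusted p = 0.254), and was 0.14 without DV706 and DV707 and 0.41 without DV709. The chosen probe set is of a kind that can match other transcripts, and of 5 Csnk1d probe sets 4 were higher and 1 was lower, at -0.36. Under rosiglitazone Csnk1d was between 12.00 and 12.43 in the CR arrays and between 12.18 and 12.51 in the DR arrays, a difference of 0.09 (SE 0.13). Csnk1e, the casein kinase 1 epsilon gene, was at 7.21, 7.62, 7.87 and 7.91 in CV702 to CV705 and at 6.09, 7.12, 7.43, 8.24 and 7.49 in DV706 to DV710, so the diabetic vehicle arrays spread on both sides of the controls. Its log2 difference was -0.38 (SE 0.31), which became 0.07 without DV706 and DV707 and -0.62 without DV709. In DR716 to DR720 Csnk1e was 7.29, 7.74, 7.93, 7.63 and 8.30, around the CR range of 7.59 to 7.89, and the difference was 0.07 (SE 0.29). Csnk1e had 3 probe sets above the filter, which disagreed in sign. Those not chosen gave -0.70 and 0.45 under vehicle and -0.16 and 0.12 under rosiglitazone.

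Over the 8 genes tested, 0 passed the adjusted limma threshold of 0.05 for diabetes under vehicle, as did 0% of the 13460 genes. At an unadjusted limma p under 0.05, a looser level that 18.1% of all genes tested reached, 4 of the 8 (Dbp, Tef, Bhlhe40 and Csnk1d) lay higher, as did 10.7% of all genes, and 0 lay lower. Their median log2 difference was 0.24, against 0.03 over all genes tested, with 5 of 8 higher. Under rosiglitazone 7 of 8 lay higher with a median of 0.22, against 0.01 over all genes. There too 0% of genes passed the adjusted limma threshold, and 1 of the 8, Hlf, lay higher at an unadjusted limma p under 0.05, a level that 1.29% of all genes reached and 0.468% reached while lying higher. Ranked by limma p under rosiglitazone among 13460 genes, Hlf was at place 119, Tef at 188, Bhlhe40 at 283 and Dbp at 516. Rora was at 2720, Csnk1d at 4556, Csnk1e at 9723 and Nfil3 at 11922. Under vehicle Dbp was at 810, Tef at 1107, Csnk1d at 1838 and Bhlhe40 at 2115. Csnk1e was at 6511 there, Hlf at 9625, Rora at 10436 and Nfil3 at 13222.

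**Figure D2:**
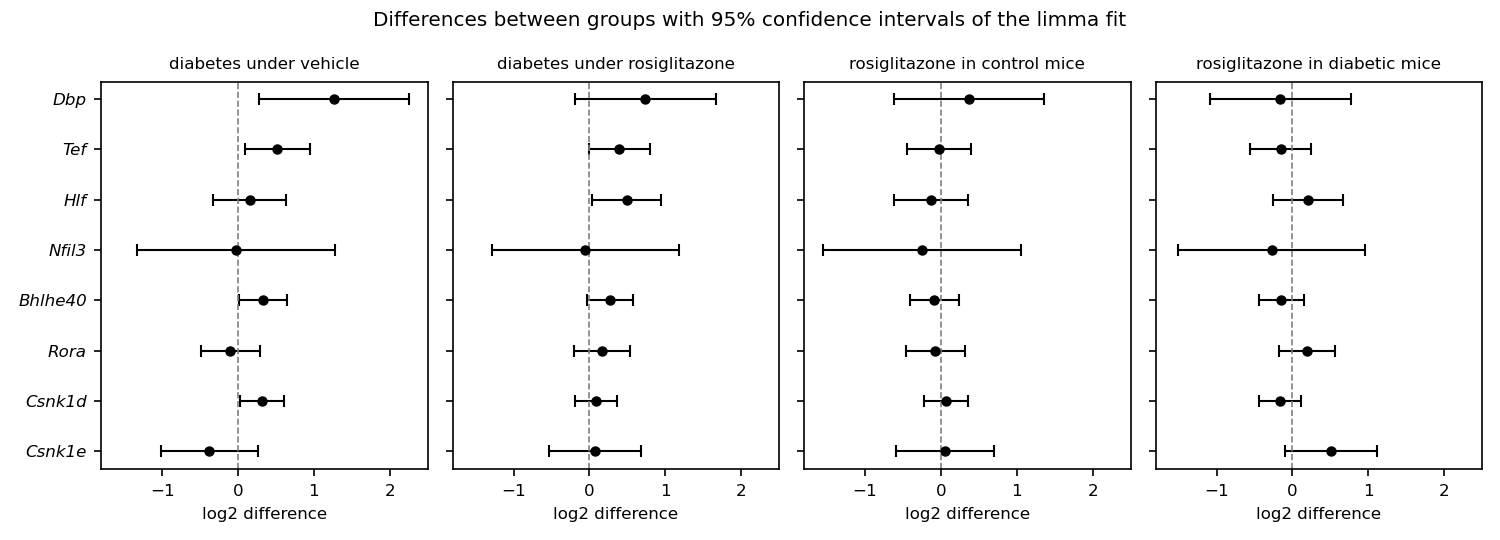
Log2 differences (x axis) of the 8 genes tested (y axis) for diabetes under vehicle, diabetes under rosiglitazone, rosiglitazone in control mice and rosiglitazone in diabetic mice, with 95% confidence intervals of the limma fit. The intervals of Dbp, Tef, Bhlhe40 and Csnk1d lie above 0 in the panel of diabetes under vehicle, that of Hlf does so under rosiglitazone, and every interval in the panels of rosiglitazone effects crosses 0.

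The comparisons of diabetes under vehicle and under rosiglitazone rest on different mice, and their mean was taken as a further comparison that was chosen after these values were seen. Dbp lay 2.01-fold higher in diabetic nerves (1.25 to 3.21), a log2 difference of 1.01 (SE 0.32) with a limma adjusted p of 0.457. Tef lay 1.37-fold higher (1.12 to 1.68) and Bhlhe40 1.23-fold higher (1.06 to 1.43), with the same limma adjusted p, and Csnk1d lay 1.15-fold higher (1.00 to 1.32). Hlf differed by 0.32 (SE 0.16), and Rora, Nfil3 and Csnk1e differed by 0.03, -0.04 and -0.15. None of the 8 passed the adjusted limma threshold, and 0% of all genes did. At an unadjusted limma p under 0.05, 4 of the 8 (Dbp, Tef, Bhlhe40 and Csnk1d) lay higher and 0 lower, where 10.3% of all genes reached that level and 6% did so while lying higher. Without the 5 neuron-poor arrays the differences were 0.66 for Dbp, 0.34 for Tef and 0.16 for Bhlhe40.

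Rosiglitazone was not followed by a detectable difference in any of these genes. In control mice 0 of 8 had an unadjusted limma p under 0.05 and 0 passed after adjustment, where 2.83% and 0% of all genes did, and the median log2 difference was -0.05. The largest was that of Dbp at 0.37 (SE 0.47), an interval of 0.652-fold to 2.56-fold. That value was 0.0071 without CV705, 0.81 without CV704 and 0.70 without CR715. In diabetic mice 0 of 8 had an unadjusted limma p under 0.05, where 9.7% of all genes did and 0% passed after adjustment, and the median was -0.15. Csnk1e was highest at 0.50 (SE 0.29), with a limma adjusted p of 0.509, and Nfil3 lowest at -0.27 (SE 0.58). The Csnk1e value was 0.21 without DV706 and 0.057 without DV706 and DV707, the arrays with the largest Gapdh difference. Without DV709 it was 0.74. The other Csnk1e probe sets gave -0.0099 and -0.27. Dbp differed by -0.16 (SE 0.44), an interval of 0.469-fold to 1.70-fold, and its probe sets disagreed in sign. The interaction of diabetes and rosiglitazone had 0 of 8 at an unadjusted limma p under 0.05, where 4.77% of all genes did and 0% passed after adjustment. For Dbp it was -0.53 (SE 0.64) and for Csnk1e 0.45 (SE 0.42). Intervals this wide do not show that the drug left these transcripts alike.

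The rest of the clock was described from lists of textbook genes, and no gene of the 3 lists below passed the adjusted limma threshold in a comparison. Of the core clock genes, 10 of 12 were tested. For diabetes under vehicle 7 of them lay higher, with a median log2 difference of 0.38, and 4 did so at an unadjusted limma p under 0.05. Over all genes tested 52.9% lay higher, with a median of 0.03, and 10.7% did so at that level. These were the repressor genes Per2 at 1.29 (SE 0.38), Per3 at 0.79 (SE 0.30), Cry1 at 0.77 (SE 0.32) and Cry2 at 0.71 (SE 0.14). Arntl, which encodes BMAL1, was at -0.82 (SE 0.45) and Npas2, a partner of BMAL1, at -0.92 (SE 0.50). Cry1 was at 0.27 without DV706 and DV707 and at 0.14 without the 5 neuron-poor arrays. Per2 was at 0.85 without CV702 and Arntl at -0.52 without CV705, while Per3 and Cry2 stayed above 0.55 and 0.63 with any of these arrays or any single array left out. Under rosiglitazone Per2 was at 1.11 (SE 0.36), Arntl at -1.28 (SE 0.42) and Npas2 at -1.19 (SE 0.47), each with a limma adjusted p of 1. Arntl was between 6.33 and 8.56 in the DR arrays and between 7.92 and 9.80 in the CR arrays. Of the 10 core clock genes, 6 lay higher under rosiglitazone with a median of 0.21, beside 51.7% and 0.01 over all genes. At an unadjusted limma p under 0.05, 3 lay higher and 2 lower. Of all genes, 1.29% reached that level and 0.468% did so while lying higher. Per3 was at 0.77 there and at 0.40 without the 5 neuron-poor arrays. Cry2, Nr1d1 and Clock were at 0.10, -0.03 and -0.06. With both diabetes comparisons averaged, Per2 differed by 1.20 (SE 0.26, limma adjusted p = 0.457), Cry2 by 0.40 (SE 0.09), Arntl by -1.05 (SE 0.31) and Npas2 by -1.05 (SE 0.34). Dbp, Per2, Per3 and Tef lay higher, and Arntl and Npas2 lower, in both sets of diabetic mice, as values that the adjusted test did not call. These genes were picked out after all values were seen. Cry2 had an interaction of -0.60 (SE 0.19, limma adjusted p = 0.748), with 0.37 (SE 0.14) for rosiglitazone in control mice and -0.24 (SE 0.13) in diabetic mice.

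Of 10 other genes under clock control, all tested, 9 lay higher for diabetes under vehicle with a median of 0.32, and 2 of them at an unadjusted limma p under 0.05. Nampt, the rate-limiting enzyme of NAD salvage, was at 0.36 (SE 0.17) and Ciart, a repressor of BMAL1 and CLOCK, at 0.85 (SE 0.40). Nampt was at 0.10 without DV706 and DV707 and at -0.03 without the 5 neuron-poor arrays. The 9 of 10 and 2 of 10 stand beside the 52.9% and 10.7% of all genes that did so. Under rosiglitazone 10 of 10 lay higher with a median of 0.42, of which 4 at an unadjusted limma p under 0.05, beside 51.7% and 0.468% of all genes. Wee1, a kinase that holds back entry into mitosis and a classic target of the clock, was at 0.77 (SE 0.23), and the tetraspanin gene Tspan4 at 0.57 (SE 0.18). Their values under vehicle were 0.50 (SE 0.25) and 0.39 (SE 0.20), and that of Wee1 was 0.04 without the 5 neuron-poor arrays. Of the kinases and ubiquitin ligase subunits that modify clock proteins, besides Csnk1d and Csnk1e, 9 of 12 were tested. They had medians of 0.05 under vehicle and -0.01 under rosiglitazone, with 1 gene, the casein kinase 2 subunit Csnk2a2, at an unadjusted limma p under 0.05 under vehicle (0.31, SE 0.14), a share near that of all genes. Csnk2a1 was at -0.68 (SE 0.35) under vehicle, and at -0.16 without DV706 and DV707. In diabetic mice rosiglitazone gave -0.26 (SE 0.11) for Csnk1g1. It was 1 of 9 at an unadjusted limma p under 0.05, beside 9.7% of all genes. In control mice rosiglitazone gave -0.65 (SE 0.22) for Tsc22d3, of the genes under clock control. It was 1 of 10 at that level, beside 2.83% of all genes. Glucocorticoid-induced genes, which respond to the stress hormone corticosterone, lay higher in 7 of 10 genes under vehicle and 9 of 10 under rosiglitazone, with medians of 0.19 and 0.14. At an unadjusted limma p under 0.05, 3 of the 10 lay higher under vehicle and 0 under rosiglitazone. These were Fkbp5, which encodes a chaperone of the glucocorticoid receptor, at 1.02 (SE 0.32), Zbtb16 at 0.98 (SE 0.30) and the metallothionein gene Mt1 at 0.37 (SE 0.17), and without DV706 and DV707 the latter pair was at 0.63 and 0.18. Immediate early genes lay higher in 8 of 11 and 11 of 11, with medians of 0.17 and 0.34, and 0 of 11 at that level in either. Beside both lists, 52.9% of all genes tested lay higher under vehicle and 51.7% under rosiglitazone. At that level 10.7% and 0.468% did so. The part of either list in the differences of the clock output genes was not tested.

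Within groups, after each gene's group mean was subtracted, Dbp varied from mouse to mouse with some of the clock genes. Correlations are descriptions over arrays that share tissue content and RNA quality, and carry no test. Among the other 13459 genes tested, the highest Pearson r to Dbp over 19 arrays was that of Sphk2 at 0.99, followed by Nr1d2 at 0.91, Per3 at 0.87, Tef at 0.87 and Rhebl1 at 0.85. Nr1d2 encodes REV-ERB beta, a repressor at the RORE. The lowest were Scaf8 at -0.85, Arntl at -0.81, Npas2 at -0.81, Zfp207 at -0.75 and Nktr at -0.75. Of the 10 genes at both ends, Nr1d2, Per3, Tef, Arntl and Npas2 belong to the clock or its outputs. Among the other core clock genes tested, Clock had -0.655, Nr1d1 0.65 and Cry2 0.51. Per2 had 0.37, Cry1 -0.20 and Per1 0.15. Without the 5 neuron-poor arrays the values were 0.90 for Nr1d2, 0.84 for Per3, 0.90 for Tef, -0.84 for Arntl and -0.80 for Npas2. Spearman's rho over 19 arrays was 0.84 for Tef, 0.85 for Per3, 0.81 for Nr1d2, -0.78 for Arntl and -0.83 for Npas2. CV704 and CR715 were the arrays farthest from the median of Dbp after group means were subtracted. Leaving them out left r at 0.79 for Tef, 0.78 for Per3, 0.84 for Nr1d2, -0.71 for Arntl and -0.74 for Npas2.

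**Figure D3:**
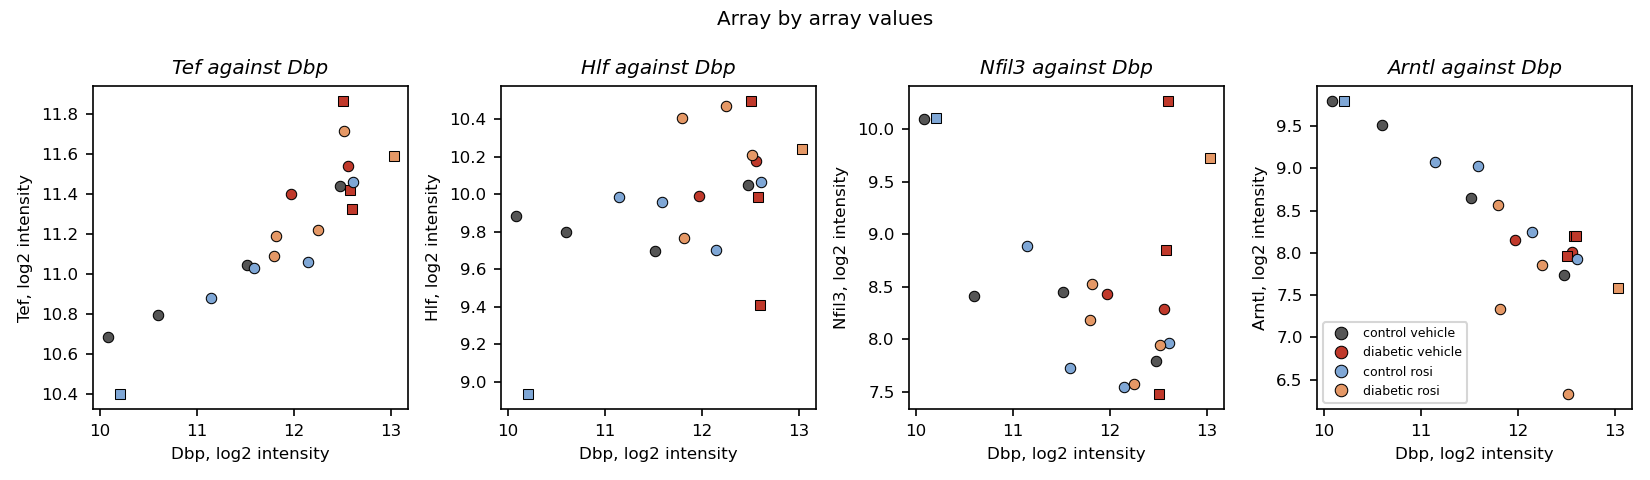
Log2 intensity of Tef, Hlf, Nfil3 and Arntl (y axes) against that of Dbp (x axis), 1 point per array, coloured by group, with squares for the 5 neuron-poor arrays. Tef climbs with Dbp and Arntl descends along it across all groups, while Hlf and Nfil3 scatter widely.

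The array values of Arntl show the opposition to Dbp. Arntl was at 9.51, 8.65, 7.73 and 9.80 in CV702 to CV705, where Dbp was at 10.60, 11.52, 12.48 and 10.08, so the control vehicle mice stood in exactly reversed order for these genes. In CR711 to CR715 Arntl was 7.92, 8.25, 9.03, 9.07 and 9.80, again in reversed order to Dbp. In DR716 to DR720 it was 7.59, 7.86, 8.56, 7.33 and 6.33, an order that was not the reverse of Dbp, since DR716 had the highest Dbp and only the third lowest Arntl. Npas2 was at 9.60, 8.69, 7.86 and 9.89 in the CV arrays and gave the same order as Arntl there. The DV arrays spanned only 7.97 to 8.19 in Arntl, with Dbp within 11.97 and 12.60, and DV706 and DV707, with the highest Dbp there, also had the highest Arntl. No source used here gives the hour at which each nerve was taken, and its part in this order was not tested.

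**Figure D4:**
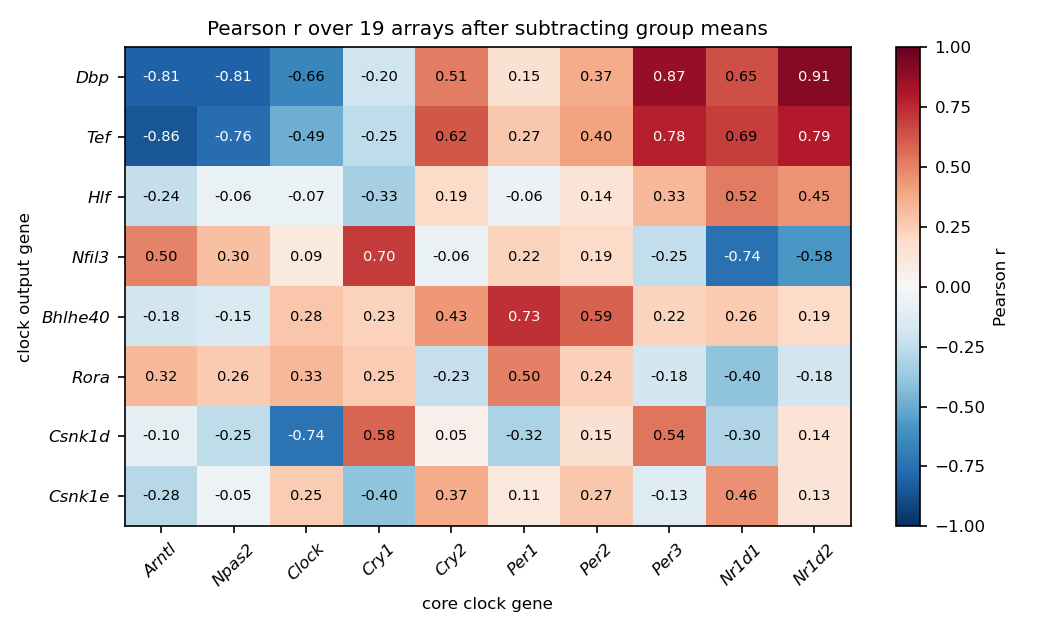
Pearson r, after subtraction of group means over 19 arrays, between the 8 clock output genes tested (rows) and 10 core clock genes (columns), with red for positive and blue for negative values. Dbp and Tef are blue for Arntl, Npas2 and Clock and red for Per3 and Nr1d2.

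The output genes did not form a single block. Among the 28 pairs of the 8 genes, 3 had an r above 0.5 and 3 below -0.5. Dbp with Tef had 0.87, Tef with Hlf 0.60 and Dbp with Hlf 0.41. The latter pairs depended on the neuron-poor arrays, with 0.20 and 0.22 without them. Nfil3 ran opposite to the activators at -0.45 with Dbp, -0.57 with Tef and -0.67 with Hlf. Without the 5 arrays these were -0.77, -0.57 and -0.18, larger for Dbp and smaller for Hlf. CR715 and CV704 were farthest from the median of Dbp after group means were subtracted. With them left out, Nfil3 and Dbp had -0.21, so that value depends on which arrays are read. Tef and Arntl had an r of -0.86. Among the other pairings with core clock genes, Nfil3 had -0.74 with Nr1d1, which encodes REV-ERB alpha, and 0.70 with Cry1. Bhlhe40 had 0.73 with Per1, and Csnk1d had -0.74 with Clock. Without the 5 neuron-poor arrays these were -0.89, 0.76, 0.67 and -0.45.

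The genes nearest to each of the others were mostly outside the clock. Tef was closest to Sphk2 at 0.91, Dbp at 0.87 and Khdrbs1 at 0.84, and Hlf to Dkk3, Foxp2 and Pnmal2 at 0.87, 0.86 and 0.86. Nfil3 was closest to Stk17b at 0.90, Lnx2 at 0.89 and H2-D1 at 0.89, and Bhlhe40 to Hes1 at 0.77, Osr2 at 0.76 and Xpnpep2 at 0.75. The last of these had an r of 0.03 and Osr2 of 0.13 without the 5 neuron-poor arrays, while Hes1, a repressor in Notch signalling, had 0.65. Rora was closest to Zbtb44 at 0.93, Arnt at 0.91 and Mbd2 at 0.90, Csnk1d to Adar, Tubgcp4 and Prpsap1 at 0.92, 0.92 and 0.91, and Csnk1e to Glmp, Scaf4 and Wdcp at 0.89, 0.89 and 0.87.

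Sphk2, a sphingosine kinase gene, followed Dbp so closely that its position matters. The annotated spans of Dbp and Sphk2 overlap on opposite strands in the GRCm38.p6 gene table. The Sphk2 probe set with an r of 0.99 to the chosen Dbp probe set had 0.96 to the other Dbp probe set, while the second Sphk2 probe set had 0.31 and -0.0025. The Dbp probe sets had 0.92 with each other. The brighter Sphk2 probe set ran from 8.63 to 11.39 over the arrays and the second from 8.69 to 9.87. How much of its signal comes from either gene was not tested, and its value is given as uncertain for Sphk2.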

How the data were processed

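Total RNA of 19 sciatic nerves was extracted with RNeasy Mini columns and amplified and labelled with biotin by the NuGEN Ovation system, per the labels' protocols, and hybridised to Affymetrix mouse arrays. The deposited values are linear intensity values per probe set and array, and the submitters' processing notes name RMA, a method that corrects background, equalises arrays and summarises probes. Its software and settings, and the step back from log2, are not given in the sources used here. Intensities ran from 3.76 to 30602, with array medians of 83.3 to 101.7, and the number of arrays limits the precision. The series' design text names 5 mice per group and 1 control array left out by the authors.

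Of 45101 probe sets, 64 were controls, and of the rest 34945 carried 1 symbol in the platform annotation, 932 several and 9160 none. Only those with 1 symbol were used by name. The log2 of each intensity was taken without an offset. Each of 18193 genes was read from its probe set with the highest mean, and the 13460 genes with a mean above the 40th percentile, a log2 intensity of 5.54, were tested with limma 3.58.1 in R 4.3.3. The model held 1 mean per group over all 19 arrays, with moderated variances (eBayes), and p-values were adjusted over all genes of a comparison by Benjamini-Hochberg, with a threshold of 0.05. Fold changes are 2 to the power of the log2 difference. The code was tested on simulated data.

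All 9 genes were to be named in every comparison, with the 3 genes most correlated to each, the 5 highest and 5 lowest for Dbp, and of each clock list the 4 with the smallest p for diabetes under vehicle and 2 elsewhere. Not every gene that this rule picks from the clock lists is named above. Arntl, Npas2, core clock genes outside that rule, and the glucocorticoid-induced and marker genes named were named after their values were seen. The genes, lists and tests were chosen with earlier results of these data known. Other settings were quantile normalization, an offset of 16, no filter, the mean of all probe sets, only the groups compared, array weights, the Gapdh 3′ minus 5′ difference as a covariate, and arrays left out. Figures were drawn with matplotlib 3.10.9.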

Additional observations from a re-analysis of the deposited data

Results flagged for a closer look

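Dbp in diabetic vehicle mice had an array apart from the others of its group. DV710 was at 11.97 while the other 4 arrays were at 12.51 to 12.60. The gap to the nearest of them was 0.855 of the group's range, above Dixon's 95% critical value of 0.710 for 5 arrays. It was the only case among 36 groups examined, and chance gives about 1 in 20.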

How the results depend on the processing

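None of the 8 genes passed the adjusted limma threshold under any setting tried. Of 808 values of 40 differences under other settings, 756 kept their direction and 52 turned, for the following differences, and the cause was not tested. Over all genes the count past the threshold was 0 except for 20 for rosiglitazone in control mice with array weights, 0 to 4 for diabetes under vehicle over single arrays left out (4 without DV710), and 0 to 1 for diabetes averaged over both treatments (1 without DV710 and 1 without DR718). With the mean of all probe sets, Dbp for rosiglitazone in diabetic mice was 0.023, Csnk1e for rosiglitazone in control mice -0.14, and Rora for diabetes under rosiglitazone -0.035 and averaged -0.19. Array weights gave -0.033 for Rora averaged. With the Gapdh covariate, rosiglitazone in diabetic mice gave 0.0089 for Csnk1d and 0.42 for Nfil3, and averaged diabetes 0.023 for Csnk1e and -0.021 for Rora. Without DV706 and DV707, Csnk1e was 0.0692 for diabetes under vehicle and 0.0689 averaged, Rora averaged was -0.011, and rosiglitazone in diabetic mice gave 0.0099 for Csnk1d, -0.0027 for Hlf and 0.33 for Nfil3. Without the 5 neuron-poor arrays, rosiglitazone gave 0.061 for Bhlhe40 in diabetic mice and 0.071 for Hlf and 0.12 for Tef in control mice, diabetes under rosiglitazone gave -0.014 for Csnk1d and 0.026 for Nfil3, and averaged diabetes gave -0.023 for Rora.

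Over single arrays left out, Nfil3 ran from -0.43 to 0.44 for diabetes under vehicle, -0.39 to 0.36 under rosiglitazone and -0.24 to 0.19 averaged, and from -0.66 to 0.23 for rosiglitazone in control and -0.61 to 0.13 in diabetic mice. Rora ran from -0.19 to 0.047 for diabetes under vehicle, -0.024 to 0.11 averaged and -0.15 to 0.039 for rosiglitazone in control mice. For rosiglitazone in control mice Bhlhe40 ran from -0.17 to 0.013, Csnk1e from -0.091 to 0.14, Hlf from -0.21 to 0.071 and Tef from -0.15 to 0.12. Csnk1e ran from -0.063 to 0.19 for diabetes under rosiglitazone. The averaged comparison, the r over 14 arrays and the values of other clock and glucocorticoid-induced genes with arrays left out were chosen after seeing the data. No paired analysis was possible because the groups share no replicate numbers. With 4 or 5 mice a group, the intervals of Dbp and Nfil3 span more than 2-fold.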
